A study of Mus musculus with 8 samples.

Results

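The genes described here are the 8 genes of meiotic double-strand break formation Spo11, Mei1, Mei4, Rec114, Ccdc36, Ankrd31, Prdm9 and Zcwpw1, followed in mouse fetal germ cells with and without the chromatin remodelling subunit SNF5. They were taken from the 29018 loci of the female table and the 30216 loci of the male table by gene name. In females 7 were found by name, and in males 6 by name and Rec114 under its older name 2410076I21Rik. Ankrd31 carried no name in either table and was taken as the unnamed locus at its annotated position, which covered 99.8% of the gene in both.

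Germ cells were sorted from E15.5 gonads by the Oct4-EGFP transgene, a fluorescent protein under the Oct4 promoter, and 8 libraries were sequenced by RNA-Seq, 2 from control and 2 from Snf5 CKO germ cells of each sex. Snf5 CKO germ cells carried 1 floxed and 1 deleted Snf5 allele (Snf5 fx/Δ) with TNAP-Cre, a Cre knocked into the Alpl gene that acts in primordial germ cells. Controls were a mixture of Snf5 fx/+, Snf5 fx/Δ and Snf5 fx/+ with TNAP-Cre germ cells, so some of them also carried a deleted allele or the Cre. The sample labels give the strain as C57BL/6, whereas the study's methods describe a mixed background that also holds 129/Sv and ICR. The recombination removes the first exon of Snf5 and was incomplete, so that Snf5 CKO samples also held germ cells with SNF5. The study's methods call the 2 libraries of a group biological duplicates. Most libraries pooled germ cells of several embryos, and male Snf5 CKO replicate 2 came from a single embryo.

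In the first meiotic prophase, SPO11 with its partner TOP6BL cuts both strands of the DNA at many places along the chromosomes. REC114, MEI4 and IHO1, the last encoded by Ccdc36, assemble on the chromosome axes and are needed for the cuts, as is MEI1, and ANKRD31 binds REC114. PRDM9 is a histone methyltransferase with a zinc finger array that chooses the sites of the breaks, and ZCWPW1 reads the histone marks that PRDM9 leaves. Female mouse germ cells enter this prophase in the fetal ovary, whereas male germ cells of the same age stop dividing and enter meiosis only after birth.

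Sequences just before the start site are shown for 4 of these genes, a pair with large fold changes in Snf5 CKO females (Prdm9 and Ccdc36) and the pair with the smallest (Mei4 and Rec114). Each is the 150 bases upstream of the RefSeq start on GRCm38.p6, written 5′ to 3′ on the strand of the gene, and lies at chr17:15564355-15564504 on the minus strand for Prdm9, at chr9:108431827-108431976 on the minus strand for Ccdc36, at chr9:81863520-81863669 on the plus strand for Mei4 and at chr9:58741560-58741709 on the minus strand for Rec114. Capitals mark matches, on either strand, to CACGTG (the E-box), GGCGGGA (an E2F-type motif) or CCTCAG.
Prdm9: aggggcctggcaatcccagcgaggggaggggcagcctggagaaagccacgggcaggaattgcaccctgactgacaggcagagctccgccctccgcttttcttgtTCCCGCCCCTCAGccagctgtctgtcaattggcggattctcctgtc
Ccdc36: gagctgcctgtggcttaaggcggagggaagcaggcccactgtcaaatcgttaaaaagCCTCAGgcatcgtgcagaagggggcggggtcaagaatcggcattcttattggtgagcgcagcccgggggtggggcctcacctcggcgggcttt
Mei4: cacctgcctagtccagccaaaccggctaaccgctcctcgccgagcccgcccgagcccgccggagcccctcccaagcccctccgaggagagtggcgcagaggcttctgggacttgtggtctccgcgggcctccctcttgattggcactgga
Rec114: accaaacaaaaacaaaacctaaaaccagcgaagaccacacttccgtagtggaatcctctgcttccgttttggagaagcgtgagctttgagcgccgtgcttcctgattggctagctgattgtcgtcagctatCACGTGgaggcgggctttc
In windows of 300 bases, which span the start site, CACGTG was found in Rec114 at bases -19 to -14. GGCGGGA was found, on the other strand, in Prdm9 at bases -46 to -40, next to a CCTCAG at -39 to -34. Prdm9 also held CCTCAG at bases 16 to 21 and 43 to 48 after the start, Ccdc36 at -93 to -88 and Ankrd31 at -109 to -104. The windows of Mei4 and Zcwpw1 held none of these letters. Over all 32851 RefSeq windows of this length, 7.15% held CACGTG, 11.3% held GGCGGGA and 26.8% held CCTCAG. The windows of Prdm9, Ccdc36, Ankrd31, Mei4, Rec114 and Zcwpw1 held between 12 and 23 CG dinucleotides, against a median of 7 over all windows. Of all windows, 60.4% held fewer than Rec114, the lowest of these genes, and 78.5% fewer than Zcwpw1, the highest. The window listed for Mei1 starts 12480 bases from the annotated start of the gene and was not used, and Spo11 has no window in the table.

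Values are FPKM, fragment counts scaled by transcript length and by the mapped fragments of a library, so that levels of different genes can be set side by side per length. Each sex was fitted alone with limma on log2(FPKM + 1), since the authors deposited a table for each sex and no source states a normalization common to both, and a gene was called lower or higher at a log2 fold change of at least 1 in size with a Benjamini-Hochberg adjusted p under 0.05 over all genes tested. The scale understates fold changes of genes with low values. An exact permutation test of 2 libraries against 2 gives p = 0.333 at best, so each p below is that of the limma fit. The targeted gene, listed as Smarcb1, fell to 14.7% of the control mean in females (adjusted p = 0.00027) and to 6.09% in males (adjusted p = 0.0021). FPKM of a library summed to between 673741 and 1554757, with 5.46% to 42.08% on unnamed loci, and the total depth of the libraries is unknown.

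In Snf5 CKO females, 6 of the 7 break-formation genes in the fit were expressed at lower levels than in control and none at higher levels. Among all 11520 genes tested, 21.6% were lower and 17.3% higher. The median log2 fold change of these 7 genes was -3.05, and that of all genes was -0.13. Ankrd31, fitted together with the unnamed loci, was lower too (23% of those 12617 loci were lower). All 8 genes had both Snf5 CKO libraries below both control libraries, as did 46.1% of the 12617 loci, and none had both above, as 34.4% of the loci did. Rec114 was the gene that did not pass the test.

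**Figure D1:**
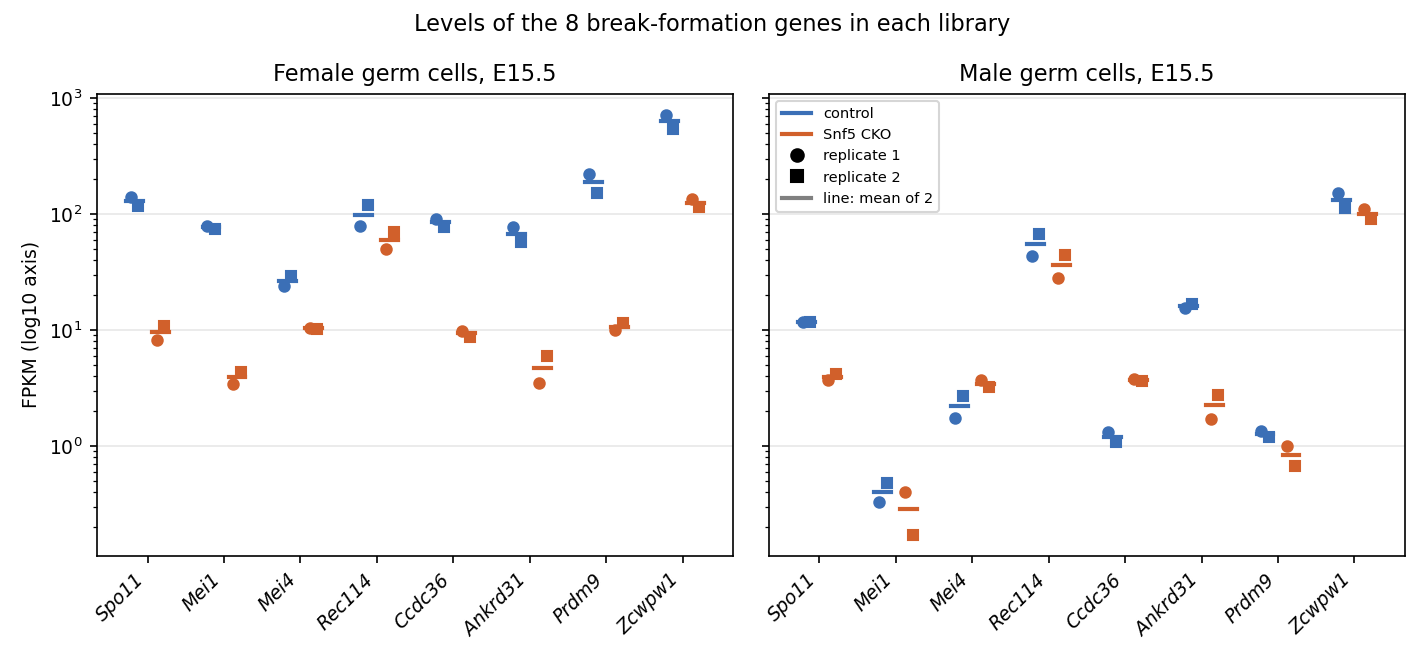
FPKM (log10 axis) of each of the 8 genes in each of the 8 libraries, females on the left and males on the right, with control in blue, Snf5 CKO in orange, circles for replicate 1, squares for replicate 2 and a line at the mean of 2 libraries. In females all 8 genes lie lower in Snf5 CKO, and in males Spo11 and Ankrd31 were called lower and Ccdc36 higher, while Mei4, Rec114, Prdm9 and Zcwpw1 were not called and Mei1 lies under 0.5 FPKM.

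Spo11 encodes the subunit that cuts the DNA and lies at chr2:172979842-172993576 of mm10 in the female table. The listed locus covers 86.5% of the annotated gene in females and 100% in males. The controls gave 140 and 118 FPKM, against 8.24 and 10.8 FPKM in Snf5 CKO. Both Snf5 CKO libraries were far under both controls, and the mean level was 7.4% of control. The log2 fold change was -3.63 (SE 0.2, adjusted p = 9.6e-05). Its partner Top6bl, listed under the older name Gm960, had 53.4 and 43.5 FPKM in control but 4.6 and 4.84 FPKM after Snf5 deletion (log2 fold change -3.11, adjusted p = 9.7e-05). Both subunits of the cutting complex were thus lower in Snf5 CKO females.

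The accessory genes differed in the size of their fold change. Mei1, at chr15:82070117-82126814, was at 79.6 and 73.7 FPKM in female control and at 3.43 and 4.36 FPKM in Snf5 CKO, 5.09% of the control mean. By mean this was the lowest share of control among the 8 genes (log2 fold change -3.99, SE 0.18, adjusted p = 9.6e-05). Set against the control of the same replicate number, Mei1 was at 4.31% and 5.92%. That overlapped Prdm9 (4.48% and 7.48%), Ankrd31 (4.57% and 10.4%) and Spo11 (5.89% and 9.18%). Ankrd31, at chr13:96748265-96909780, was at 76.9 and 57.3 FPKM in control and at 3.52 and 5.93 FPKM in Snf5 CKO. Its mean level in Snf5 CKO was 7.04% of control, with a log2 fold change of -3.59 (SE 0.28, adjusted p = 0.0018). Ccdc36, at chr9:108403472-108431893, was at 91.3 and 78 FPKM in control and at 9.89 and 8.76 FPKM in Snf5 CKO. It kept 11% of its control level (log2 fold change -3.05, SE 0.18, adjusted p = 9.6e-05). For Mei1, Ankrd31 and Ccdc36 the groups lay far apart relative to the spread within each.

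Mei4 and Rec114, whose products bind each other, had the smallest fold changes. Mei4, at chr9:81863621-82027491, was at 24 and 29.2 FPKM in female control and at 10.5 and 10.2 FPKM in Snf5 CKO. The groups did not overlap, and the level in Snf5 CKO was 39% of control (log2 fold change -1.27, SE 0.18, adjusted p = 0.0012). The listed locus covers 47.9% of the annotated Mei4 gene. Rec114, within chr9:58582240-58741559, was at 78.8 and 119 FPKM in control and at 49.6 and 70 FPKM in Snf5 CKO. The Snf5 CKO libraries were both under the controls, but the spread within each group was wide, and the log2 fold change of -0.70 (SE 0.26, 95% interval -1.33 to -0.08) had an adjusted p of 0.053. Set against the control of the same replicate number, Rec114 was at 63% and 59%, and with the replicate number as a block its adjusted p was 0.00045, with a log2 fold change that stayed under the threshold of 1.

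The genes that choose and read break sites were both lower. Prdm9, at chr17:15543079-15564352, was at 223 and 153 FPKM in female control and at 9.99 and 11.5 FPKM in Snf5 CKO. The Snf5 CKO level was 5.7% of control, a 17.5-fold difference of means (log2 fold change -3.99, SE 0.22, adjusted p = 9.6e-05). Zcwpw1, within chr5:137781906-137836278, had the highest level of the 8 genes, with 722 and 540 FPKM in control and 134 and 114 FPKM in Snf5 CKO. It fell to 19.6% of control (log2 fold change -2.33, SE 0.24, adjusted p = 0.00032) and was still the most abundant of the 8 in Snf5 CKO. A lower level in such bulk samples can come from fewer cells with the transcript or from less of it per cell, which cannot be told apart here.

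**Figure D2:**
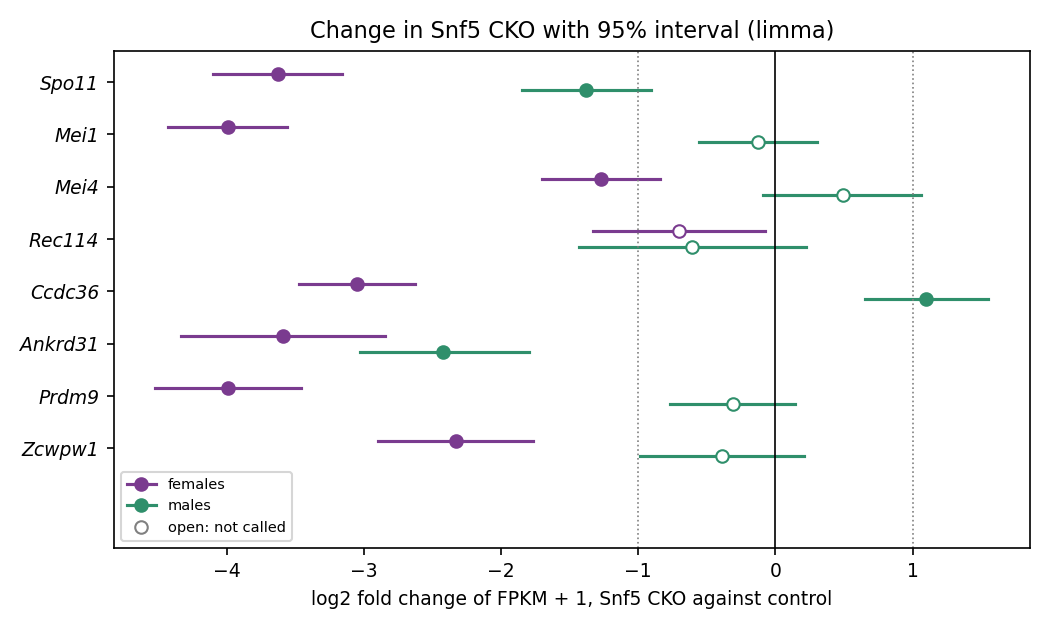
Log2 fold change of FPKM + 1 in Snf5 CKO against control for each of the 8 genes, with the 95% interval of the limma fit, females in purple and males in green, open circles for genes that were not called and dotted lines at the threshold of 1 in size. Female values run from -3.99 for Prdm9 and Mei1 to -0.70 for Rec114, and male values from -2.42 for Ankrd31 to 1.10 for Ccdc36; Ankrd31 was fitted with unnamed loci included and male Mei1 without the filter on low values.

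In Snf5 CKO males, few of the same genes were called. Of the 6 in the fit, Spo11 was lower and Ccdc36 was higher, and 4 were not called. Among all 12269 genes tested, 17.5% were lower and 14.4% higher, so the count of called genes was near the background in each direction. Ankrd31, fitted with unnamed loci included (17.3% of 13757 loci lower), was lower too, and Mei1 was under the minimum of 1 FPKM. The median log2 fold change of the 6 genes was -0.35, against -0.07 over all genes. Both Snf5 CKO libraries were below both controls for 4 of the 8 genes, as for 40.2% of the 13757 loci, and above both for 2, as for 32.3%.

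Spo11 was at 11.8 and 11.8 FPKM in male control and at 3.7 and 4.19 FPKM in Snf5 CKO. The libraries of each group were close to each other, and Snf5 CKO was at 33.4% of control (log2 fold change -1.38, SE 0.18, adjusted p = 0.0048). Ankrd31 was at 15.5 and 16.6 FPKM in control and at 1.72 and 2.75 FPKM in Snf5 CKO, 13.9% of control (log2 fold change -2.42, SE 0.22, adjusted p = 0.0087). With any 1 of the 4 male libraries left out, Ankrd31 kept a log2 fold change between -2.65 and -2.18, but its adjusted p lay between 0.058 and 0.071 and it was no longer called. Spo11 remained called with each library left out. Top6bl was near 1 FPKM in all male libraries, with 0.853 and 1.27 FPKM in control and 0.828 and 1.11 FPKM in Snf5 CKO, and its groups overlapped (log2 fold change -0.07, adjusted p = 0.8).

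Ccdc36 went the other way in males. It was at 1.31 and 1.08 FPKM in male control and at 3.78 and 3.64 FPKM in Snf5 CKO. Both Snf5 CKO libraries were above both controls, with a mean at 311% of control (log2 fold change 1.10, SE 0.18, adjusted p = 0.0076). The call was lost after rescaling all libraries to an equal sum, where the log2 fold change was 0.98 (adjusted p = 0.034), and without the moderation of variances (adjusted p = 0.054). Its mean also lies under the stricter minimum of 5 FPKM. Mei4 was at 1.74 and 2.68 FPKM in control and at 3.71 and 3.2 FPKM in Snf5 CKO, without overlap of the groups, and was not called (log2 fold change 0.49, SE 0.22, adjusted p = 0.13). These levels of Ccdc36 and Mei4 are a few FPKM, against 24 to 91.3 FPKM of the same genes in the female controls.

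The remaining genes were not called in males. Rec114 was at 43.5 and 67.5 FPKM in control and at 28 and 44.3 FPKM in Snf5 CKO, and the groups overlapped (log2 fold change -0.61, SE 0.32, 95% interval -1.43 to 0.22, adjusted p = 0.18). Within the same replicate number, however, it was at 64.3% and 65.6% of control, close to the female values. With the replicate number as a block, its adjusted p was 0.0005 at the same fold change, below the size needed for a call. Zcwpw1 was at 151 and 112 FPKM in control and at 110 and 89.9 FPKM in Snf5 CKO, with a log2 fold change of -0.39 (SE 0.23, adjusted p = 0.23). The Snf5 CKO libraries were just under the controls, at 72.6% and 80.2% within replicate numbers, and the adjusted p with the block was 0.0024. Prdm9 was at 1.34 and 1.2 FPKM in control and at 0.999 and 0.676 FPKM in Snf5 CKO, all about 1 FPKM (log2 fold change -0.31, SE 0.18, adjusted p = 0.2). Mei1 was at 0.33 and 0.478 FPKM in control and at 0.401 and 0.172 FPKM in Snf5 CKO, and without the filter on low values its log2 fold change was -0.13 (95% interval -0.56 to 0.30, adjusted p = 0.59).

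**Figure D3:**
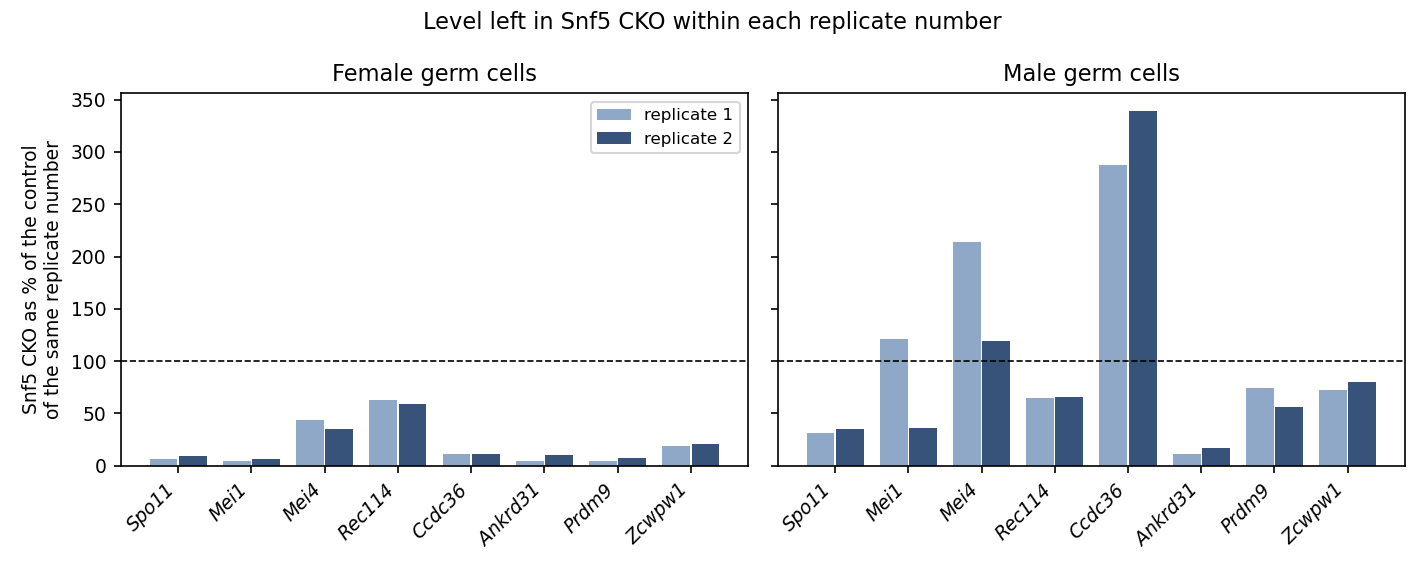
Snf5 CKO level as a percentage of the control library with the same replicate number, for each of the 8 genes, with replicate 1 in light and replicate 2 in dark bars and a dashed line at 100%. In females the bars run from 4.31% to 63%, and Rec114 keeps 59% to 65.6% in both sexes; male Ccdc36 stands at 288% and 339%, while male Mei1, with values under 0.5 FPKM, lies at 121% and 36%.

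The order of the levels differed between female control and Snf5 CKO. In female control the order by mean was Zcwpw1 (631 FPKM), Prdm9 (188), Spo11 (129), Rec114 (98.7), Ccdc36 (84.6), Mei1 (76.6), Ankrd31 (67.1) and Mei4 (26.6). The libraries of neighbours overlapped from Spo11 down to Ankrd31, whereas Zcwpw1, Prdm9 and Mei4 stood apart from the genes next to them. In female Snf5 CKO the order was Zcwpw1 (124 FPKM), Rec114 (59.8), Prdm9 (10.7), Mei4 (10.4), Spo11 (9.53), Ccdc36 (9.33), Ankrd31 (4.72) and Mei1 (3.9), with overlap between neighbours from Prdm9 to Ccdc36 and between Ankrd31 and Mei1. Rec114 moved to the second place, apart from the genes on either side.

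In male control the order was Zcwpw1 (132 FPKM), Rec114 (55.5), Ankrd31 (16.1), Spo11 (11.8), Mei4 (2.21), Prdm9 (1.27), Ccdc36 (1.19) and Mei1 (0.404), and only Prdm9 and Ccdc36 overlapped. In male Snf5 CKO it was Zcwpw1 (99.9 FPKM), Rec114 (36.1), Spo11 (3.95), Ccdc36 (3.71), Mei4 (3.45), Ankrd31 (2.24), Prdm9 (0.837) and Mei1 (0.286), with overlap from Spo11 to Mei4. Zcwpw1 and Rec114 thus led in both male groups and in female Snf5 CKO. The FPKM of the 8 genes added up to 1440 and 1170 in female control and to 229 and 235 in female Snf5 CKO. It added up to 227 and 214 in male control and to 152 and 149 in male Snf5 CKO, which is given side by side only, since no normalization common to the tables is stated. Rec114 held 5.49% and 10.2% of the sum in female control, 21.7% and 29.8% in female Snf5 CKO, and 19.2% and 31.6% in male control.

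Of the 8 other PRDM9 partners and regulators of break formation, 7 had a locus in the tables and Zcwpw2 was not analysed here. Over all genes tested, 21.6% were lower and 17.3% higher in females, and 17.5% were lower and 14.4% higher in males. These shares are the background for this list and the lists that follow. In females 3 of the 7 were lower, 1 was higher and 3 were not called. Beside Top6bl, the lower genes were Atm, the kinase that limits the number of breaks (log2 fold change -2.08, adjusted p = 0.00025), and Hells, a remodeller that works with PRDM9 (-1.13, adjusted p = 0.0042). The higher gene was Ehmt2, a histone H3 lysine methyltransferase (1.08, adjusted p = 0.0033). Ewsr1 (-0.09, adjusted p = 0.72) and Cxxc1 (-0.72, adjusted p = 0.0093) were not called. In males 2 were lower, Ehmt2 (-1.65, adjusted p = 0.0032) and Cxxc1 (-1.09, adjusted p = 0.0069), and 5 were not called. Ehmt2 was at 11.1 and 13.6 FPKM in female control and 30.2 and 24.3 FPKM in female Snf5 CKO, and at 132 and 110 FPKM in male control and 39.3 and 35.8 FPKM in male Snf5 CKO, opposite directions whose difference was not tested.

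The chromosome axis, on which the accessory proteins assemble, showed lower transcript levels for most of its genes in females. Of its 8 genes 7 were lower, with a median log2 fold change of -2.21 over the list. The largest changes were those of the cohesin subunit Rad21l (-4.08, adjusted p = 0.00013), the axis proteins Sycp2 (-3.90, adjusted p = 9.7e-05) and Sycp3 (-3.58, adjusted p = 0.00016), and the cohesin subunit Smc1b (-2.47, adjusted p = 0.00021). The meiotic cohesin Rec8 was higher instead, with 27.4 and 47.1 FPKM in control and 110 and 97.9 FPKM in Snf5 CKO (1.5, adjusted p = 0.0028). In males 3 of the 8 were lower, Sycp3 (-2.49), Sycp2 (-2.43) and Rad21l (-2.21), Rec8 was again the 1 higher gene (1.65, adjusted p = 0.0047), and 4 were not called.

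Of 19 genes that process the breaks and carry out strand exchange, 9 were lower, 2 higher and 8 not called in females. The background was 21.6% lower and 17.3% higher. The median log2 fold change of the 19 genes was -1. Spata22 (-4.14, adjusted p = 9.6e-05) and Meiob (-3.93, adjusted p = 0.00011), whose products coat single-stranded DNA together, changed most. Mcmdc2 (-3.33, adjusted p = 0.0001) and the meiotic recombinase Dmc1 (-2.53, adjusted p = 0.00011) followed. The replication protein A subunits Rpa1 (1.70, adjusted p = 0.00084) and Rpa2 (1.13, adjusted p = 0.0024), which also serve dividing cells, were higher. Rpa3 (0.32, adjusted p = 0.29) was not called. Neither was Swi5 (-1 after rounding, adjusted p = 0.026), whose unrounded fold change fell just short of the threshold of 1 in size. In males 16 of the 19 were not called, Spata22 was lower (-2.78, adjusted p = 0.0021), and the nuclease Exo1 (1.97, adjusted p = 0.0055) and Psmc3ip (1.11, adjusted p = 0.031) were higher. Spata22 was at 12.6 and 12 FPKM in male control and 0.858 and 1.02 FPKM in male Snf5 CKO.

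Most of the regulators of meiotic entry that could be followed were not called. Of the 4 with a locus, Ythdc2, an RNA helicase, was lower in females (-1.45, adjusted p = 0.0011) and 3 were not called. Stra8, the retinoic acid responsive factor of meiotic entry, was at 225 and 393 FPKM in female control and 269 and 330 FPKM in Snf5 CKO, and the groups overlapped (0.00, adjusted p = 0.99). Dazl was at 771 and 888 FPKM in control and 630 and 631 FPKM in Snf5 CKO (-0.39, adjusted p = 0.23). In males Zglp1 was lower (-1.78, adjusted p = 0.011) and the other 3 were not called. Gm4969 and Meioc were not analysed here.

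**Figure D4:**
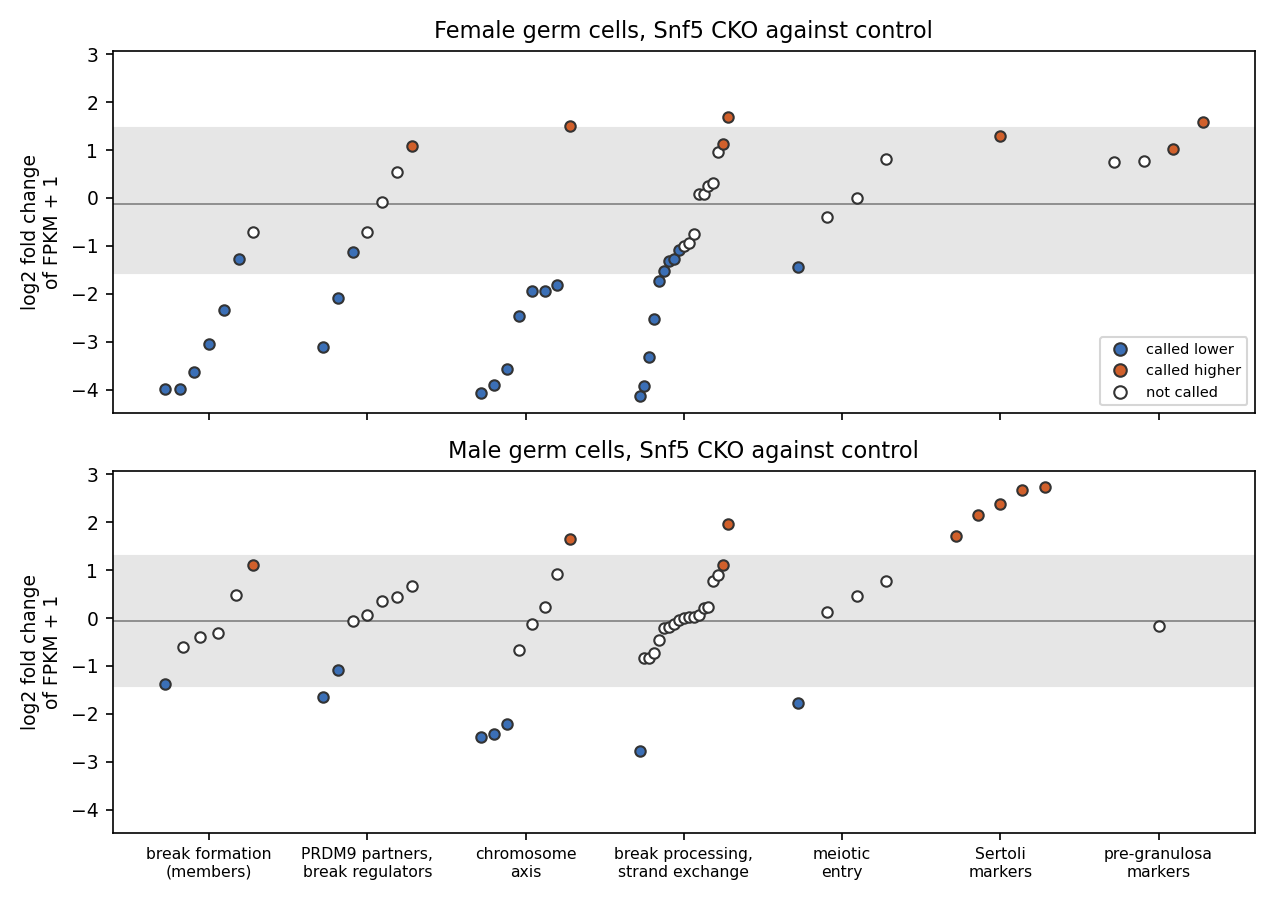
Log2 fold change of FPKM + 1 in Snf5 CKO against control for the tested genes of each list, females above and males below, with called genes filled, the grey line at the median of all genes tested and the grey band from their 10th to their 90th percentile. Female break-formation, axis and break-processing genes reach below -3.5, and male Sertoli cell markers lie between 1.71 and 2.73; Ankrd31, fitted with unnamed loci, is not drawn.

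Markers of other cells moved with the groups. In males all 5 Sertoli cell markers (Sox9, Amh, Dhh, Aard and Cst9) were higher in Snf5 CKO, and their summed level was 71.2 to 102 FPKM in control and 460 to 632 FPKM in Snf5 CKO, as Ccdc36 was higher and Spo11 and Ankrd31 lower. Leydig cell markers were lower in 3 of 5 tested (summed 58.2 to 85.7 FPKM in control and 15.2 to 19.2 FPKM in Snf5 CKO) and stromal markers in 3 of 4 (9.71 to 20.1 and 2.81 to 4.06 FPKM). Among the lower Leydig markers, Insl3 shares its listed locus with Jak3. No Sertoli, Leydig or stromal marker was at 0 in any male library. Their part in the male results was not tested.

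In females the summed pre-granulosa markers were at 4.13 to 6.49 FPKM in control and 15.3 to 18.1 FPKM in Snf5 CKO, with 2 of 4 tested higher. The 5 Sertoli markers summed to 2.89 to 4.59 FPKM and to 9.99 to 10.6 FPKM, most of it Aard, with Dhh and Cst9 at 0 in both female controls. Leydig markers summed to 4.75 to 4.88 and 11.8 to 12 FPKM. Most of that was the locus Insl3 shares with Jak3, at 3.13 and 3.99 FPKM in control and 8.52 and 10.1 FPKM in Snf5 CKO. Star, Cyp11a1 and Cyp17a1 overlapped between the groups, and Hsd3b1 was above both controls but not called. Stromal markers summed to 5.85 to 11.7 and 3.93 to 4.86 FPKM. Blood and endothelial markers summed to 8.85 to 41.4 and 1.59 to 28.5 FPKM. Nearly all of this was the shared locus of Hba-a1 and Hba-a2, at 8.32 and 41.1 FPKM in control and 1.47 and 28.4 FPKM in Snf5 CKO. Of the 5 germ cell markers, Ddx4 and Dazl were not called, while Dnd1 (log2 fold change 4.39), Pou5f1 (4.59) and Kit (2.02) were higher. Pou5f1 is the gene whose promoter drives the EGFP used for the sort. In males Dnd1 was lower (-1.78), Kit was higher (1.70) and the other 3 were not called. The part of these markers, and of the sort, in the levels of the break-formation genes was not tested.

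Overlapping loci limit some values, since the library kit does not keep the strand. Rec114 shares its listed range with Nptn, which lies on the opposite strand and overlaps it over 5106 bases. Nptn was at 28.5 and 27.5 FPKM in female control and 44 and 45.8 FPKM in female Snf5 CKO, and at 19.4 and 24.4 FPKM and 38 and 40.2 FPKM in males, higher where Rec114 was not. Zcwpw1 overlaps Pilra over 670 bases, and Pilra was at 80.1 and 98.9 FPKM in female control and 16.3 and 22.1 FPKM in female Snf5 CKO. The female locus of Zcwpw1 also spans Mepce, at 23 and 19.7 FPKM in control and 11.5 and 8.94 FPKM in Snf5 CKO. Ccdc36 overlaps 1700102P08Rik on the opposite strand over 7324 bases.

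The genes most like Spo11 in pattern were found by the Euclidean distance, over the 8 libraries, between log2(FPKM + 1) values centred on the control mean of each table, among 10464 genes tested in both sexes. They were Nrip3 (distance 0.37), Psd (0.46), Acss2 (0.60), Stk33 (0.67) and Ugt8a (0.67). Their log2 fold changes ranged from -3.75 to -3.36 in the female table and from -1.68 to -0.93 in the male one. Those most like Prdm9 were Msh5 (0.44), Meiob (0.71), Tsga10 (0.80), Azi2 (0.95) and Hfm1 (1.11), with log2 fold changes from -3.93 to -3.38 in females and from -0.75 to 0.22 in males. Msh5 and Hfm1 are known for their roles in crossover formation. The distances are a description of these 8 libraries, which share the controls of each table.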

How the data were processed

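RNA of sorted E15.5 germ cells was amplified with the SMART-Seq v4 kit and made into Nextera XT libraries. The authors mapped the reads to mm10 with Tophat, quantified them with Cufflinks, and deposited 1 table of FPKM values per sex, with a status for each value. The tables also hold 16 columns of confidence limits, which were left out. The submitters' notes list TopHat2 2.2.1 and Cuffdiff 2.1.1, whose versions differ from those in the methods. The annotation and the library normalization are not given in the sources used here. FPKM without counts give no depth, so no counting interval is stated.

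Members and lists were chosen with earlier results of these data known. Where a gene had several loci, that of highest mean FPKM was taken, and printed starts were counted from 1. Ankrd31 was placed with GENCODE vM21 (GRCm38), and Rec114 was matched by a RefSeq synonym. Per sex, named genes averaging 1 FPKM or more entered a limma fit (version 3.58.1, R 4.3.3) of log2(FPKM + 1), with a trend in eBayes, two-sided tests, Benjamini-Hochberg adjustment and no replicate block. All 8 members were named whatever their values. From each related list at most 4 called genes with the largest change in females and at most 2 uncalled ones with the highest mean were named. Outside this rule, Rpa1 and Rpa2 were named as the higher genes of their list in females. Genes called in males were named after their values were seen. Other settings tried were a pseudocount of 0.1, no filter, a minimum of 5 FPKM, rescaling to a common sum or by median of ratios, a replicate block, eBayes without trend or no moderation, only loci with status OK, unnamed loci included and each library left out. Scripts were tested on simulated data. Promoter windows came from RefSeq (GRCm38.p6), where 7 of the 8 members matched. Figures were drawn with matplotlib 3.10.9.

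Replicate numbers were taken as the mark of a shared batch, since the male column names call them experiments and the labels name the raw files of each number in its own style. The log2 difference between replicates 2 and 1 of the controls correlated across genes with that of the Snf5 CKO libraries (r of 0.50 in females and 0.61 in males).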

Additional observations from a re-analysis of the deposited data

Results flagged for a closer look

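For Mei4, both Snf5 CKO libraries were below both controls in females (log2 fold change -1.27) and above both in males (0.49), where it was not called (adjusted p = 0.13 from limma). Ccdc36 was likewise below its controls in females (log2 fold change -3.05) and above them in males (1.10), where its call depended on the settings. With unnamed loci included, 46.1% of female loci had both Snf5 CKO libraries below both controls, and 32.3% of male loci had both above. The share of loci that did both was not counted. The sexes stand in separate tables, and the difference between them was not tested for either gene.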

How the results depend on the processing

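No fold change of the 8 genes was reversed under any alternative: of 197 refits, 188 kept the side of the threshold and 9 lost a call. Without the moderation of variances, 1054 genes were lower and 870 higher in females and 369 and 278 in males, 0 break-formation genes were higher in males, and the adjusted p rose to 0.052 for Mei4 and 0.051 for Ankrd31 in females and to 0.064 for Ankrd31 in males. The other lost calls were those of male Ccdc36 under rescaling to a common sum and no moderation (0 members higher), and of male Ankrd31 with each library left out. In males, no filter gave 1100 genes higher, a minimum of 5 FPKM gave 1347 lower with 0 members higher, and with unnamed loci 2 members were lower. The cause was not tested, other than fewer genes tested under the stricter minimum and the added Ankrd31 locus. With each library left out, 2314 to 2746 genes were lower and 1953 to 2075 higher in females, 1993 to 2267 and 1621 to 1864 in males, and the counts of members stayed at 6 lower in females and at 1 lower and 1 higher in males. Without a block, the log2 fold change of female Rec114 moved with the library left out. It was -0.996 without control replicate 1 and -0.95 without Snf5 CKO replicate 2. It was -0.41 without control replicate 2 and -0.46 without Snf5 CKO replicate 1. Leaving out 1 library breaks the pairing by replicate number, within which Rec114 was at 63% and 59% of control. The replicate block changed no call of a member; it gave 2497 genes lower and 2008 higher in females and 2216 and 1848 in males, and its pairing lowered the adjusted p of Rec114 and of male Zcwpw1 as described. The share of higher among called male genes was 45.1%, against 34.8% with a common sum (median log2 fold change of all genes -0.24) and 54.1% with median-of-ratios (0.07); in females it was 44.5%, and 52.5% with median-of-ratios (median 0.02). The medians in the reported fits were -0.13 in females and -0.07 in males. The refits of Ankrd31 with unnamed loci were chosen after seeing the data. Depth is unknown, so no counting error can be given for genes near 1 FPKM, such as male Prdm9, Mei1 and Top6bl, and male Mei1 had a value only without the filter.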

Other observations

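Unnamed loci were listed at the same positions as 2 of the break-formation genes in the female table. The one at the position of Prdm9 was at 16.1 and 14.6 FPKM in control and at 2.42 and 2.02 FPKM in Snf5 CKO. The one at the position of Ccdc36 was at 13.6 and 23.8 FPKM in control and at 0.854 and 1.95 FPKM in Snf5 CKO. Both were lower in each Snf5 CKO library than in each control, the direction of the named gene at the same position. The same held for 46.1% of the 12617 female loci, unnamed ones included. No test was run on them.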
